A study of Mus musculus with 11 samples.

Results

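The genes described here copy DNA and divide the cell. They are 42 of the 38283 genes of the deposited count table, given as a list of symbols: 20 act in S phase, when DNA is copied, and 22 act in mitosis. All 42 were found in the table, and 41 had enough counts to be tested among 14332 genes (19 of the 20 S phase genes and 22 of the 22 mitotic genes). Ccne1 did not. The RNA came from mouse duodenal epithelium that had been dissociated and sorted by a fluorescent reporter. NeuroD1 positive cells (3 libraries) and NeuroD1 negative cells (3 libraries) came from the strain Neurod1-cre-eYFP, in which a Cre recombinase expressed with Neurod1, a transcription factor of hormone-producing gut cells, switches on a yellow fluorescent protein. Such a Cre mark is kept by a cell and its descendants, so it does not require that Neurod1 is still expressed. Glu positive cells (3 libraries) and Glu negative cells (2 libraries) came from the strain GluVenus, in which the Venus protein reports the proglucagon gene Gcg, and a positive cell is one with proglucagon promoter activity. All mice were fed standard chow, and the labels give no age, sex or treatment. Each library keeps its group and label number as its name. Whether the numbers stand for different mice is not given, so a p-value here speaks only of variation among libraries, which may be technical.

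In the duodenal crypt, stem cells and their early daughters cycle, and most hormone-producing enteroendocrine cells on the way up to the villus have left the cycle. Before S phase, CDC6 and CDT1 load the MCM2 to MCM7 ring onto replication origins, and CDC45 and the GINS complex turn that ring into the active helicase. E2F1 and the E-type cyclins drive the entry into S phase. In mitosis, CDK1 with its A- and B-type cyclins, the Aurora kinases and PLK1 drive chromosome condensation and spindle assembly, and the anaphase-promoting complex ends it. Many S phase promoters hold E2F sites, and many mitotic promoters hold a CHR element (cell cycle genes homology region) beside CCAAT boxes, to which the DREAM and MYB-MuvB complexes and NF-Y bind.

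These promoter words are shown because they differ between the S phase and the mitotic genes in sequence, apart from any level measured here. Promoter sequences from RefSeq (GRCm38.p6), 250 bases before to 50 after each start, were found for 34 of the 42 genes, 17 of each kind, and the first listed start was taken for 2 genes with more than 1. The E2F words searched were TTTCCCGC, TTTCGCGC, TTTGCCGC and TTTGGCGC, the CHR word was TTTGAA and the CCAAT word was CCAAT, each on both strands. Just 1 word in a promoter of these genes overlapped a word of another motif. An E2F word was in 7 of 17 S phase promoters (41.2%; Cdc6, Cdt1, Hells, Mcm3, Mcm5, Mcm6 and Mcm7), in 1 of 17 mitotic promoters (5.88%; Cdk1) and in 2.32% of all 27025 promoters. The CHR word was in 2 of 17 S phase promoters (11.8%), in 12 of 17 mitotic promoters (70.6%) and in 18.1% of all promoters. CCAAT was in 58.8% of the S phase promoters, in 88.2% of the mitotic promoters and in 37.9% of all promoters. The mitotic promoters thus more often held the CHR word and the S phase promoters the E2F words, as counts without a test. A matching word is a description and not a binding site shown to be used, and a promoter without one lacks only these letters in this window. Examples follow, 160 bases before to 10 after the start, 5′ to 3′ on the strand of the gene. For Mcm5 (chr8:75109349-75109518, plus strand), Hells (chr19:38930830-38930999, plus strand) and Mcm6 (chr1:128359696-128359865, minus strand) the capitals mark the E2F words. For Mki67 (chr7:135716370-135716539, minus strand), Ccnb2 (chr9:70421545-70421714, minus strand) and Top2a (chr11:99024180-99024349, minus strand) they mark the CHR word, which reads TTCAAA in Top2a.
Mcm5: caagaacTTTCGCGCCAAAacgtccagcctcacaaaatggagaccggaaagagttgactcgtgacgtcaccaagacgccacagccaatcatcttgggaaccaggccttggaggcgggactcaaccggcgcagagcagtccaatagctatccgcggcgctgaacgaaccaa
Hells: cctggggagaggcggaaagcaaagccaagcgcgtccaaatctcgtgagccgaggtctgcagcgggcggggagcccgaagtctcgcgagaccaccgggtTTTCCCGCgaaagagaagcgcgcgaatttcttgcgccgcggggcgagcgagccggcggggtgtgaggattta
Mcm6: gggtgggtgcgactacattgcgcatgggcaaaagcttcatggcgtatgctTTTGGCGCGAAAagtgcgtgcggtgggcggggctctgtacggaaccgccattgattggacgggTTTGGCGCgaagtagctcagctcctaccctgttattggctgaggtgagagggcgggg
Mki67: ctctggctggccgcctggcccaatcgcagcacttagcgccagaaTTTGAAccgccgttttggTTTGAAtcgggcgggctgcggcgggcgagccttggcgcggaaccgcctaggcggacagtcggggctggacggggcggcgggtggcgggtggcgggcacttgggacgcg
Ccnb2: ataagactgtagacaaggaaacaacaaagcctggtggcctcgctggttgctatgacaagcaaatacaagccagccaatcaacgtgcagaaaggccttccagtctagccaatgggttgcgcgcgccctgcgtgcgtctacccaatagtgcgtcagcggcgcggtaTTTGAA
Top2a: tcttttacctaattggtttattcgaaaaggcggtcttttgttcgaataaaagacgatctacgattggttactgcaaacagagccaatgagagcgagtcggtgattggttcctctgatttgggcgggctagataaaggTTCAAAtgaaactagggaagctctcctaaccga

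**Figure D1:**
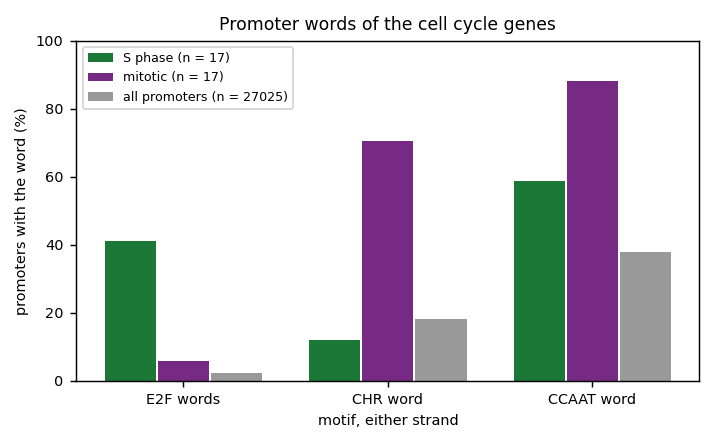
Share of promoters, in percent, that hold an E2F word, the CHR word or CCAAT on either strand, for 17 S phase genes, 17 mitotic genes and all 27025 RefSeq promoters. The E2F bar is highest for S phase genes (41.2%) and the CHR bar is highest for mitotic genes (70.6%).

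The libraries held 2279595 to 5722381 counts. Levels are given as CPM, which is a count taken as a share of its library's total after TMM scaling, and fold changes as log2 ± SE from edgeR's quasi-likelihood test with Benjamini-Hochberg adjustment over all 14332 genes, with adjusted p under 0.05 as the threshold. Neurod1 stood at 394, 540.2 and 526 CPM in NeuroD1 positive libraries, against 35.6, 42.2 and 49.8 CPM in NeuroD1 negative libraries. Gcg stood at 60980, 20200 and 25870 CPM in Glu positive libraries, against 3166 and 2272 CPM in Glu negative libraries, so the sorts followed their labels. Some features of the libraries touch the results below. Both mitochondrial rRNA genes, mt-Rnr1 and mt-Rnr2, were at 0 in NeuroD1_negative_6360 and all 5 Glu libraries, and made up 27.5% to 33.9% of all counts in each of the 5 remaining libraries. Glu_positive_5254 was the highest of all 11 libraries for 14 of the 42 genes (9 of S phase and 5 of mitosis). NeuroD1_negative_6360 was the highest for 10 (2 and 8) and NeuroD1_negative_6361 for 8 (4 and 4). How often each library was the highest over all genes was not counted. The 10 listed T cell markers summed to 1890 CPM in Glu_positive_5254, against 312 and 344 CPM in the other Glu positive libraries.

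**Figure D2:**
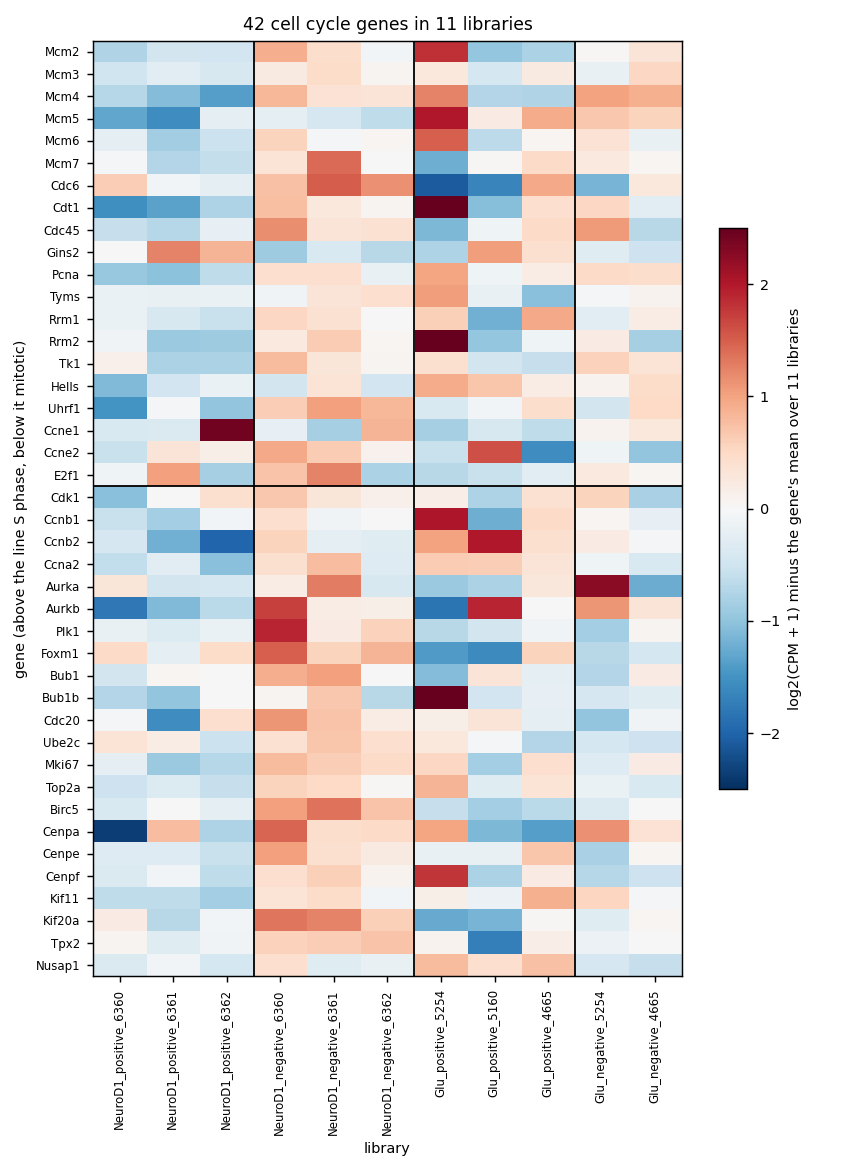
Levels of the 42 cell cycle genes (rows, S phase above the line and mitotic below it) in the 11 libraries (columns, by group), as log2(CPM + 1) minus the gene's mean over all libraries. The NeuroD1 positive columns are mostly blue and the NeuroD1 negative columns mostly red. Glu_positive_5254 holds the highest value of 14 genes and NeuroD1_negative_6360 that of 10.

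The first comparison asked how the cell cycle genes stand in NeuroD1 positive cells against NeuroD1 negative cells. All 22 mitotic genes had log2 fold changes below 0, with a median of -0.95, while the median of all genes tested was 0.02. Of the 22, Mki67 passed the test and fell, and none rose by edgeR, DESeq2 or limma voom. An unadjusted p under 0.05 was found for 9 of 22, beside 26.4% of all genes. Across all 41 tested genes of both kinds, 40 had log2 fold changes below 0, as 49.2% of all genes did. Calls were few: 1 of 41 was called lower, beside 7.61% of all genes called lower, and 1 of 41 was called higher, beside 6.57% of all genes called higher. The fold changes thus lay mostly on one side, and few single genes passed. A difference in RNA from bulk cells cannot tell fewer cycling cells from less RNA of these genes per cell.

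Mki67, whose protein Ki-67 coats mitotic chromosomes and is the common marker of cycling cells, lies on chromosome 7 (135689784 to 135716361, GRCm38). It stood at 195, 119 and 139.7 CPM in NeuroD1 positive libraries, against 397, 350.4 and 317 CPM in NeuroD1 negative libraries. Every positive library was below every negative library. The log2 fold change was -1.23 ± 0.36 with an edgeR adjusted p of 0.0265. Top2a, the topoisomerase that untangles sister chromosomes, stood at 89.6, 102 and 87.1 CPM in NeuroD1 positive libraries, against 192, 183 and 131 CPM in NeuroD1 negative libraries. The groups did not overlap, but the log2 fold change of -0.86 ± 0.34 did not pass (edgeR adjusted p of 0.0987). Cdk1, the kinase that starts mitosis, overlapped between the groups. It stood at 2.94, 7.25 and 9.75 CPM in NeuroD1 positive libraries, against 12.0, 9.04 and 7.86 CPM in NeuroD1 negative libraries (log2 fold change -0.53 ± 0.70). Ccnb1, the cyclin B1 partner of CDK1, stood at 4.41, 3.43 and 6.57 CPM in NeuroD1 positive libraries, against 9.69, 6.53 and 6.98 CPM in NeuroD1 negative libraries, and here the groups overlapped narrowly (log2 fold change -0.68 ± 0.77). Both Cdk1 and Ccnb1 were covered by few reads, 8 to 68 and 9 to 55 counts in these 6 libraries.

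The other mitotic genes are given by role. Of 8 kinases, cyclins and regulators, 4 had every NeuroD1 positive library below every NeuroD1 negative library, where 17.2% of all genes did. Aurkb, the kinase of the chromosomal passenger complex, had the lowest log2 fold change of all members, at -2.23 ± 0.83 (edgeR adjusted p of 0.0843). The polo-like kinase gene Plk1 stood at -1.50 ± 0.71, the cyclin genes Ccnb2 at -1.25 ± 0.57 and Ccna2 at -0.99 ± 0.39, the transcription factor gene Foxm1 at -0.80 ± 0.64 and the spindle pole kinase gene Aurka at -0.76 ± 0.84. None of these 6 passed. Of 4 genes of the spindle checkpoint and the anaphase-promoting complex, the log2 fold changes were -0.92 for the checkpoint kinase Bub1, -0.66 for its relative Bub1b, -0.98 for the activator Cdc20 and -0.47 for the ubiquitin-conjugating enzyme Ube2c, and of the 4 only Ube2c had groups that did not overlap. Of 10 centromere, chromosome and spindle genes, 8 had groups that did not overlap, beside the same 17.2% of all genes. Among them, the passenger complex gene Birc5 stood at -1.32 ± 0.53, the motor genes Kif20a at -1.42 ± 0.76 and Kif11 at -1.01 ± 0.44, the kinetochore genes Cenpe at -1.02 ± 0.44 and Cenpf at -0.73 ± 0.51, and the spindle factor gene Tpx2 at -0.76 ± 0.52. Cenpa, the histone of the centromere, stood at -1.29 ± 0.87 and the spindle gene Nusap1 at -0.32 ± 0.47, both with overlapping groups. Part of some genes lies under a neighbour on the other strand, so reads of the pair cannot be told apart without strand: 29.3% of the exons of Kif20a with Cdc23 and 12.5% of those of Ccna2 with Exosc9. Ube2c shares 22.8% of its exons with Tnnc2, whose mean was 0 CPM in the NeuroD1 positive libraries and 0.059 CPM in the NeuroD1 negative ones.

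Most S phase genes lay on the same side. Of the 19 tested, 18 had log2 fold changes below 0 in NeuroD1 positive against NeuroD1 negative cells, with a median of -0.90. None passed as lower by edgeR or limma voom, 3 did by DESeq2, and Gins2 passed as higher by edgeR. Of the 19, 6 had an unadjusted p under 0.05, where 26.4% of all genes did. Over both kinds of gene, 26 of 41 had every NeuroD1 positive library below every NeuroD1 negative library (13 of S phase and 13 of mitosis), where 17.2% of all genes did. Only Gins2 had every NeuroD1 positive library above every NeuroD1 negative library, where 18.3% of all genes did.

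Of the licensing and helicase genes, 9 of 10 had log2 fold changes below -0.5. Mcm2, a subunit of the replicative helicase, stood at 13.2, 16.4 and 16.3 CPM in NeuroD1 positive libraries, against 43.9, 31.6 and 21.8 CPM in NeuroD1 negative libraries. The groups did not overlap, and the log2 fold change was -1.09 ± 0.64. Its partners in the ring stood at -0.68 ± 0.46 (Mcm3), -1.65 ± 0.56 (Mcm4, edgeR adjusted p of 0.0583), -0.52 ± 0.53 (Mcm5), -0.76 ± 0.51 (Mcm6) and -1.17 ± 0.54 (Mcm7). The loaders Cdt1 and Cdc6 stood at -1.82 ± 0.84 and -1.18 ± 1.07, and the helicase activator Cdc45 at -1.44 ± 0.84. Of these 8 only Mcm5 had overlapping groups.

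Gins2 encodes a subunit of the GINS complex of that same helicase (chromosome 8, 120578633 to 120589304). It stood at 66.8, 161 and 122 CPM in NeuroD1 positive libraries, against 35.8, 51.7 and 41.5 CPM in NeuroD1 negative libraries. All positive libraries were above all negative libraries, with a log2 fold change of 1.44 ± 0.44 and an edgeR adjusted p of 0.0339. On the other strand, exons of Gse1 cover 2758 of the 4097 exon bases of Gins2 (67.3%). Gse1 averaged 166 CPM in NeuroD1 positive and 41.6 CPM in NeuroD1 negative libraries, and 68.2 CPM in Glu positive and 50.04 CPM in Glu negative libraries. The use of strand in counting is not given in the sources used here, so the reads of the pair cannot be told apart. Gins2 passed neither with library totals (1.15, edgeR adjusted p of 0.115), upper quartile scaling (1.31, 0.0619) or limma voom (1.43, 0.0595), nor without any 1 of NeuroD1_positive_6361 (0.161), NeuroD1_positive_6362 (0.0900), NeuroD1_negative_6360 (0.142), NeuroD1_negative_6361 (0.0579) or NeuroD1_negative_6362 (0.104), all as adjusted p-values.

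The genes of the clamp, nucleotide supply and chromatin copying were all below 0 (7 of 7). Pcna, the sliding clamp that holds DNA polymerase, stood at 14.7, 13.7 and 18.4 CPM in NeuroD1 positive libraries, against 39.1, 39.2 and 25.3 CPM in NeuroD1 negative libraries. These groups did not overlap, and the log2 fold change was -1.14 ± 0.45 (edgeR adjusted p of 0.101). Rrm2, the regulated subunit of ribonucleotide reductase, stood at 19.1, 10.3 and 10.6 CPM in NeuroD1 positive libraries, against 24.2, 32.1 and 20.9 CPM in NeuroD1 negative libraries. Its groups did not overlap either, with a log2 fold change of -0.95 ± 0.72. Uhrf1, which carries DNA methylation over to the new strand, stood at -1.64 ± 0.56 (edgeR adjusted p of 0.0573). The nucleotide enzymes Tk1 (-0.90 ± 0.53), Rrm1 (-0.70 ± 0.48) and Tyms (-0.41 ± 0.50) and the chromatin remodeller Hells (-0.40 ± 0.52) were closer to 0. Of the drivers of S phase entry, E2f1 stood at -0.43 ± 0.75 and Ccne2 at -0.74 ± 0.98, with overlapping groups. Ccne2 shares 17.4% of its exons with Ints8 on the other strand, which averaged 47.3 CPM in NeuroD1 positive and 49.0 CPM in NeuroD1 negative cells. Ccne1, the cyclin E1 gene that was not tested, had 1, 1 and 40 counts in NeuroD1 positive libraries, 3, 0 and 5 counts in NeuroD1 negative libraries, 0, 1 and 1 counts in Glu positive libraries and 4 and 8 counts in Glu negative libraries. Of its 64 counts, 40 were in NeuroD1_positive_6362 alone.

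**Figure D3:**
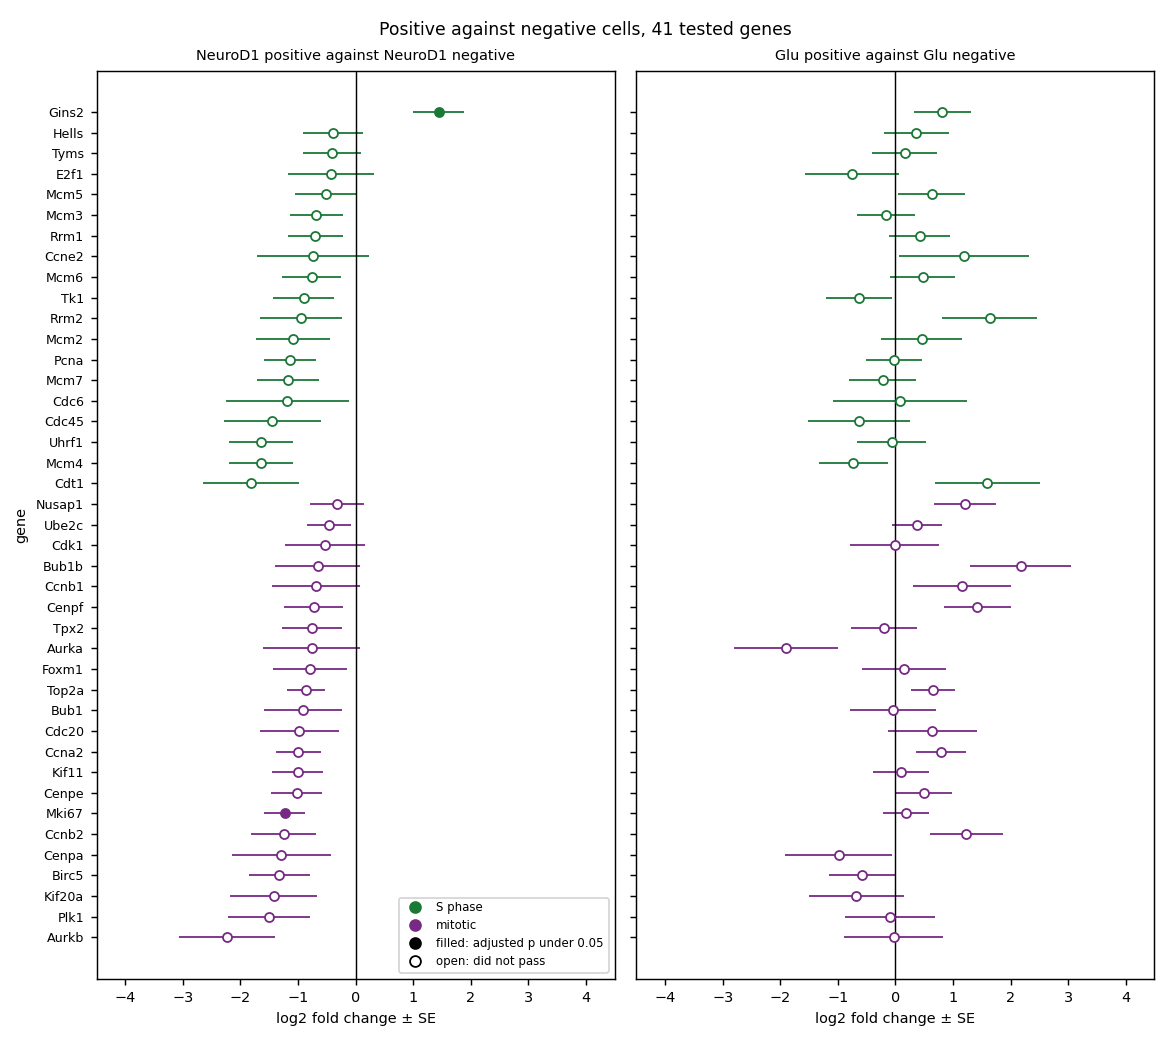
Log2 fold change (± SE) of the 41 tested genes in NeuroD1 positive against NeuroD1 negative cells (left) and in Glu positive against Glu negative cells (right), S phase genes above mitotic genes, with filled points for an adjusted p under 0.05. On the left 40 of 41 points lie below 0 and Gins2 and Mki67 are filled, and on the right 17 lie below 0 and no point is filled.

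Summed over the 22 mitotic genes, NeuroD1 positive libraries held 597, 539 and 497 CPM and NeuroD1 negative libraries 1221, 1114 and 874 CPM, a log2 ratio of the means of -0.98. Over the 20 S phase genes the sums were 314, 388 and 360.1 CPM in NeuroD1 positive libraries and 512.5, 546 and 405 CPM in NeuroD1 negative libraries, a log2 ratio of -0.46. The groups did not overlap in either sum. Much of the gap between the 2 ratios lay in 1 gene, since without Gins2 the S phase sums were 247.5, 226 and 238 CPM in NeuroD1 positive libraries, against 477, 494 and 363 CPM in NeuroD1 negative libraries, a log2 ratio of -0.91.

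Markers of other cells moved with this comparison, in which 7.61% of all genes were called lower and 6.57% higher. In NeuroD1 positive against NeuroD1 negative cells 10 of 10 T cell markers fell, with sums of 17.9 to 62.1 CPM against 366 to 492 CPM. Of the B and plasma cell markers 9 of 10 fell (901 to 1687 CPM against 18020 to 39250 CPM). Of the myeloid markers 8 of 9 fell (15.6 to 29.2 CPM against 230.1 to 442 CPM), of the Paneth markers 6 of 7 (124 to 259 CPM against 568 to 2746 CPM) and of the enterocyte markers 9 of 10 (4188 to 5691 CPM against 7248 to 21680 CPM). The crypt stem markers did not go this way: 0 of 10 fell by edgeR, DESeq2 or limma voom. Their log2 fold changes were above 0 for 6 and below 0 for 4, from -1.49 (Lgr5) to 1.22 (Cd44). Cd44 was called higher by edgeR (adjusted p of 0.0413) and was the only 1 at an unadjusted p under 0.05. Limma voom called 1 of these markers higher and DESeq2 called 0. Their sums were 566 to 804 CPM in NeuroD1 positive and 391 to 705 CPM in NeuroD1 negative libraries. Goblet markers were mixed, with 5 of 8 lower and 2 higher, as were stromal and endothelial markers, with 5 of 10 lower and 1 higher. Of 6 tuft markers tested, 3 fell and 0 rose. The part of these other cells in the levels of the cell cycle genes was not tested.

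The number of calls in the NeuroD1 comparison differed between settings. The 6 libraries of this comparison fitted alone gave 12 genes lower and 1 higher, DESeq2 gave 6 and 1, library totals gave 6 and 0, limma voom gave 1 and 0, and edgeR without Glu_positive_5254, a library of the other strain that enters the shared estimate of spread, gave 6 and 1 (Aurkb, Mcm4, Mki67, Pcna, Top2a and Uhrf1 lower). Leaving out Glu_positive_5160 or Glu_positive_4665 gave 3 lower each. Over all genes, 1090 were called lower and 941 higher in the main fit. Under the alternatives other than leaving out 1 library, these numbers ran from 821 to 1399 lower and from 634 to 1318 higher. Mki67 did not pass without NeuroD1_positive_6361 (edgeR adjusted p of 0.131), NeuroD1_positive_6362 (0.101), NeuroD1_negative_6360 (0.0971) or NeuroD1_negative_6361 (0.0639), while its log2 fold change stayed between -1.08 and -1.23 in those fits.

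**Figure D4:**
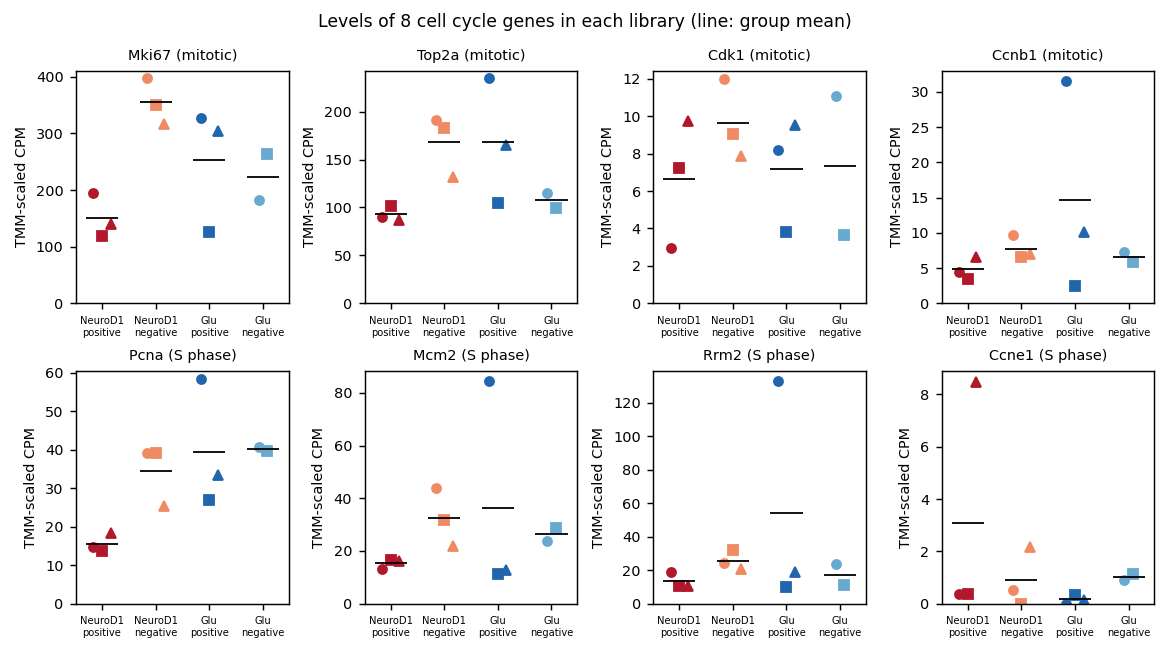
TMM-scaled CPM of 8 cell cycle genes in each of 11 libraries, with a line at the group mean. NeuroD1 positive points lie below NeuroD1 negative points for Mki67, Top2a, Pcna, Mcm2 and Rrm2, and Glu_positive_5254 (circle) is far above the other Glu positive libraries for Mcm2 and Rrm2.

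The second comparison asked the same of Glu positive cells against Glu negative cells. None of the 41 tested genes passed in either direction by edgeR, DESeq2 or limma voom, where edgeR called 4.22% of all genes higher and 2.41% lower, 6.64% in all. Of the 41, 4 had an unadjusted p under 0.05, where 23.4% of all genes did. The median log2 fold change was 0.16 for S phase genes, 0.17 for mitotic genes and 0.12 for all genes. Of the 41 genes 17 had log2 fold changes below 0, where 45.2% of all genes did, and 2 had every Glu positive library below both Glu negative libraries, where 16.5% of all genes did (E2f1 and Birc5, and 6 of 41 with library totals). Ccna2, Ccnb2 and Nusap1 had every Glu positive library above both Glu negative libraries, where 15.8% of all genes did. With 2 Glu negative libraries the test has less precision here than in the NeuroD1 strain.

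In several genes 1 library stood far from the rest of its group in the Glu strain. Mki67 stood at 328, 127 and 304 CPM in Glu_positive_5254, Glu_positive_5160 and Glu_positive_4665, against 182 and 263 CPM in Glu_negative_5254 and Glu_negative_4665. The positive libraries lay on both sides of the negative ones (log2 fold change 0.19 ± 0.40), and the sign changed under several settings. Top2a stood at 235, 104 and 165 CPM in Glu positive libraries, against 116 and 99.2 CPM in Glu negative libraries (0.65 ± 0.38). Pcna stood at 58.2, 26.9 and 33.5 CPM in Glu positive libraries, against 40.7 and 39.8 CPM in Glu negative libraries. Its positive libraries also lay on both sides. Mcm2 stood at 84.7, 11.4 and 12.8 CPM in Glu positive libraries, against 23.7 and 28.9 CPM in Glu negative libraries, so 1 library was high and the other two were below both negative libraries. Its log2 fold change was 0.46 ± 0.70 with Glu_positive_5254 and -1.11 without it. Rrm2 stood at 132.9, 9.99 and 18.9 CPM in Glu positive libraries, against 23.7 and 11.1 CPM in Glu negative libraries, so Glu_positive_5254 was again high, and of the other two one lay below both negative libraries and one between them. Ccnb1 stood at 31.6, 2.41 and 10.1 CPM in Glu positive libraries, against 7.30 and 5.88 CPM in Glu negative libraries. Cdk1 stood at 8.19, 3.79 and 9.54 CPM in Glu positive libraries, against 11.1 and 3.64 CPM in Glu negative libraries, with full overlap.

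At the ends of the Glu range 1 library also stood apart. Bub1b, at a log2 fold change of 2.18 ± 0.88 (edgeR adjusted p of 0.144), stood at 168, 13.4 and 16.4 CPM in Glu positive libraries, against 13.9 and 15.1 CPM in Glu negative libraries. Cenpf, at 1.43 ± 0.58 (edgeR adjusted p of 0.1504), stood at 156, 25.5 and 51.8 CPM in Glu positive libraries, against 27.0 and 30.8 CPM in Glu negative libraries. In both the high value was that of Glu_positive_5254. Aurka, at -1.90 ± 0.90 (edgeR adjusted p of 0.213), stood at 3.03, 3.45 and 8.40 CPM in Glu positive libraries, against 35.8 and 2.24 CPM in Glu negative libraries, and without Glu_negative_5254 its log2 fold change was 1.20. Mcm4 passed as lower only when Glu_positive_5254 was left out (-1.75, edgeR adjusted p of 0.0344), Cenpf as higher only without Glu_positive_5160, and Bub1b as higher only without the filter on low counts (2.15, edgeR adjusted p of 0.0202).

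Summed over genes, the S phase group held 865, 412 and 481.5 CPM in Glu positive libraries and 469 and 458 CPM in Glu negative libraries. The mitotic group held 1284, 659 and 920 CPM in Glu positive libraries and 670 and 685 CPM in Glu negative libraries. In both sums the positive libraries lay on both sides of the negative ones. The log2 ratio of the means was 0.34 for S phase and 0.49 for mitosis, and -0.05 and 0.22 without Glu_positive_5254. That library also held 923 CPM of Cd4, a helper T cell gene named after its values were seen, against 72.3 and 114 CPM in Glu_positive_5160 and Glu_positive_4665. Its myeloid markers summed to 488 CPM, against 151 and 89.3 CPM. Cd4 had the highest log2 fold change of the 10 T cell markers in Glu positive against Glu negative cells (1.74), and 8 of the 10 lay below 0. In Glu positive against Glu negative cells 3 of 10 T cell markers, 4 of 10 B and plasma cell markers and 6 of 9 myeloid markers fell. So did 2 of 6 tuft and 1 of 8 goblet markers, beside 2.41% of all genes. Enterocyte markers were mixed, with 4 of 10 lower and 1 higher. Of the 10 crypt stem markers edgeR called 0, DESeq2 2 higher and limma voom 1 higher, and 7 lay above 0. EdgeR also called 0 Paneth and 0 stromal and endothelial markers, of which 7 of 7 and 9 of 10 lay below 0. The T cell sums were 312 to 1890 CPM in Glu positive and 1153 to 1271 CPM in Glu negative libraries. Their part in the cell cycle levels was not tested.

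**Figure D5:**
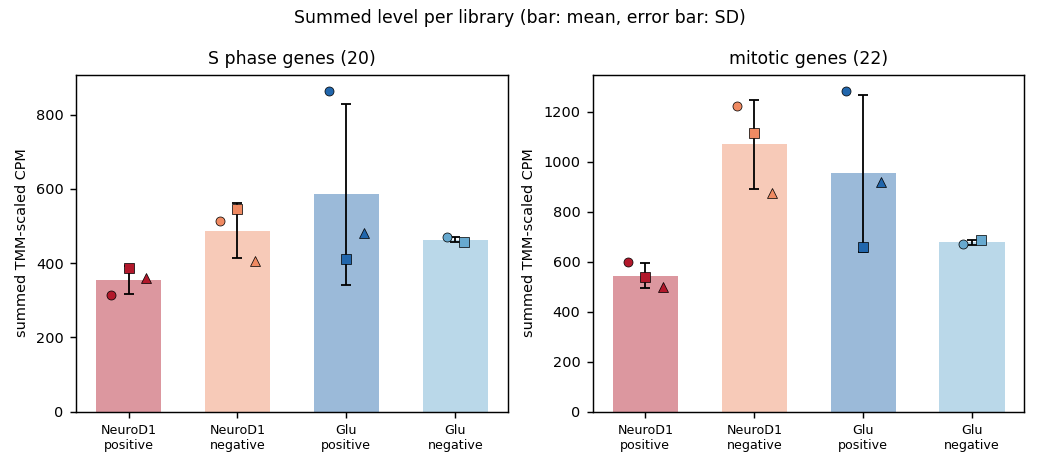
Summed TMM-scaled CPM of the 20 S phase genes (left) and the 22 mitotic genes (right) in each library, with bars for the group mean and error bars for the SD over 3 libraries (2 for Glu negative). NeuroD1 positive points lie below NeuroD1 negative points in both panels, and the highest Glu positive point in each panel is Glu_positive_5254 (865 and 1284 CPM).

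Whether the strains differed was tested as an interaction, the NeuroD1 difference minus the Glu difference. No member passed in either direction (edgeR, DESeq2 and limma voom), and 0.0907% of all genes were called higher and 0.0209% lower, 0.112% in all. An unadjusted p under 0.05 was found for 10 of the 41 members and 10.9% of all genes. Interactions were below 0 for 38 of the 41, as for 57.1% of all genes. The median interaction was -1.12 for S phase genes and -1.41 for mitotic genes, against -0.20 for all genes. Mki67 stood at -1.42 ± 0.54 (edgeR adjusted p of 0.332) and Top2a at -1.51 ± 0.51 (0.281). The interaction was lowest for Cdt1, at -3.41 ± 1.24 (edgeR adjusted p of 0.312), and highest for Aurka, at 1.14 ± 1.24. Mki67 falling in one strain and not passing in the other is thus not shown to differ between them.

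Between the positive populations, NeuroD1 positive against Glu positive, 3 of 41 genes were called lower and 0 higher by edgeR, where 4.95% of all genes were called lower and 3.18% higher, 8.13% in all. DESeq2 called 7 lower and 0 higher, limma voom 2 and 0, and 14 had an unadjusted p under 0.05, as 24.6% of all genes did. Log2 fold changes were below 0 for 30 of the 41 genes, as for 55.5% of all genes. Strain, reporter and any batch that went with them cannot be told apart in this comparison. Mcm5, a helicase subunit (chromosome 8, 75109569 to 75128439), whose promoter is printed above, stood at 8.81, 7.25 and 19.3 CPM in NeuroD1 positive libraries, against 95.3, 26.9 and 44.6 CPM in Glu positive libraries. No library overlapped, and it fell by 2.22 ± 0.54 on the log2 scale (edgeR adjusted p of 0.0160). Ccnb2, the cyclin B2 gene (chromosome 9, 70407692 to 70421547), stood at 14.0, 7.63 and 4.03 CPM in NeuroD1 positive libraries, against 39.1, 78.5 and 25.2 CPM in Glu positive libraries. It fell by 2.49 ± 0.59 (edgeR adjusted p of 0.0130), again with no overlap. Cdt1, the licensing factor gene (chromosome 8, 122568015 to 122573554), stood at 2.203, 2.67 and 4.45 CPM in NeuroD1 positive libraries, against 70.1, 3.45 and 11.4 CPM in Glu positive libraries. Its groups overlapped, and the fall of 3.14 ± 0.86 (edgeR adjusted p of 0.0291) rested on Glu_positive_5254, since without it the log2 fold change was -1.25 with an edgeR adjusted p of 0.347. Without that library Mcm5 stood at -1.58 (edgeR adjusted p of 0.0655) and did not pass, while Ccnb2 did at -2.62 (0.0120). Ccnb2 in turn did not pass without Glu_positive_5160, its highest library, nor without NeuroD1_positive_6361 or NeuroD1_positive_6362.

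The other members between the positive populations did not pass. Mki67 stood at -0.74 ± 0.36, Top2a at -0.86 ± 0.34, Bub1b at -2.33 ± 0.76 (edgeR adjusted p of 0.0675) and E2f1 at 0.84 ± 0.76. Of the 41 genes 9 had every NeuroD1 positive library below every Glu positive library, where 12.2% of all genes did, and Birc5 had the reverse, where 11.4% did. Leaving out Glu_positive_5160 or Glu_positive_4665 gave 8 genes lower each, and leaving out NeuroD1_positive_6360 or NeuroD1_positive_6362 gave 1 and NeuroD1_positive_6361 gave 0. All 10 T cell markers fell in NeuroD1 positive against Glu positive cells, with sums of 17.9 to 62.1 CPM and 312 to 1890 CPM. Also lower were 5 of 8 goblet, 4 of 10 B and plasma cell, 2 of 9 myeloid, 1 of 10 enterocyte and 1 of 6 tuft markers. The same held for 1 of 10 stromal and endothelial and 1 of 10 crypt stem markers, the last being Lgr5 (-3.24 ± 0.81, edgeR adjusted p of 0.0183). Of the 10 enteroendocrine markers 4 were called higher and 2 lower. Over all genes edgeR called 4.95% lower and 3.18% higher in this comparison. The part of these cells in the result was not tested.

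Between the negative populations, NeuroD1 negative against Glu negative, no member passed by edgeR, DESeq2 or limma voom, and 0.363% of all genes were called higher and 0.126% lower. An unadjusted p under 0.05 was found for 3 members, beside 9.04% of all genes. The fold changes of 19 of the 22 mitotic genes were above 0, with a median of 0.66, against -0.01 for all genes, and 13 of the 19 S phase genes were above 0, with a median of 0.26, whereas 50.6% of all genes were below 0. In 12 of 22 mitotic genes both Glu negative libraries were below all NeuroD1 negative libraries, where 15.3% of all genes were. Of the 19 S phase genes 3 were higher and 3 lower without overlap, where 15.3% and 16.5% of all genes were. Mki67 (0.67 ± 0.40) and Top2a (0.65 ± 0.38) were among the 12 mitotic genes. Cdc6 had the highest log2 fold change of all members, at 1.72 ± 1.23, and Mcm5 the lowest, at -1.07 ± 0.57. Markers of other cells differed here as well. All 10 enterocyte markers had log2 fold changes above 0 (median 1.29, 7 without overlap) and all 10 T cell markers below 0 (median -1.48, 8 without overlap). In these 2 lists edgeR and limma voom called 0, while DESeq2 called 3 enterocyte markers higher and 1 T cell marker lower. Also below 0 were 10 of 10 B and plasma cell, 8 of 8 goblet and 8 of 9 myeloid markers. So were 9 of 10 stromal and endothelial and 5 of 6 tuft markers. Above 0 were 7 of 7 Paneth and 8 of 10 crypt stem markers. Of the 10 enteroendocrine markers 5 were above 0 and 5 below 0, and edgeR called 1 higher and 1 lower. The part of these cells was not tested. Strain and any batch cannot be told apart here either.

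Levels between genes are compared per kb of exon. In NeuroD1 positive cells Ube2c, at 21.5 ± 6.49 CPM per kb (SD, n = 3), Mki67, at 15.0 ± 3.87, and Top2a, at 10.3 ± 0.88, stood next to Gins2, at 28.5 ± 11.6 with the overlap named above. In NeuroD1 negative cells Mki67 was first, at 35.3 ± 4.004 CPM per kb, with Ube2c at 29.7 ± 3.595 and Top2a at 18.7 ± 3.63. In Glu positive cells Ccnb2 was first at 31.1 ± 18.1 CPM per kb and Mki67 followed at 25.15 ± 10.9, a gap within their spread. In Glu negative cells Mki67 was first, at 22.1 ± 5.73 CPM per kb (SD, n = 2). Cdc6 was among the 3 lowest of the 42 genes in all 4 groups, and its level was 0.71 CPM per kb in NeuroD1 positive cells and 1.61 CPM per kb in NeuroD1 negative cells, and 0.48 CPM per kb in Glu positive cells and 0.47 CPM per kb in Glu negative cells.

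Genes that hold the cycle back were among 119 further cycle genes in 5 lists read beside the members. In NeuroD1 positive against NeuroD1 negative cells, 2 of 15 tested inhibitor and quiescence genes rose and 1 fell, beside 6.57% and 7.61% of all genes. Cdkn1c, which encodes the cyclin-dependent kinase inhibitor p57, stood at 136, 108 and 142 CPM in NeuroD1 positive libraries, against 2.12, 1.00 and 5.67 CPM in NeuroD1 negative libraries (log2 fold change 5.47 ± 0.70, edgeR adjusted p of 3.82e-05). Cdkn1a, which encodes p21, stood at 1096, 1775 and 1368 CPM in NeuroD1 positive libraries, against 174, 114.5 and 272 CPM in NeuroD1 negative libraries (2.92 ± 0.35, edgeR adjusted p of 2.16e-05). Both rose without any overlap between the groups, while the members' fold changes lay mostly below 0. Cdkn2b, which encodes p15, fell, at 5.14, 1.91 and 9.96 CPM in NeuroD1 positive libraries and 22.0, 19.6 and 25.8 CPM in NeuroD1 negative libraries (-1.95 ± 0.63, edgeR adjusted p of 0.0458), a call lost when any of 7 of the 11 libraries was left out. Btg2, an antiproliferative gene, stood at 0.89 ± 0.31 and did not pass (edgeR adjusted p of 0.0596).

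In Glu positive against Glu negative cells 1 of the 15 inhibitor genes rose, beside 4.22% of all genes. It was Cdkn1c, at 86.8, 15.2 and 81.3 CPM in Glu positive libraries and 8.62 and 3.64 CPM in Glu negative libraries (3.33 ± 0.73, edgeR adjusted p of 0.00962; 2.85 with 0.165 without Glu_negative_4665). Cdkn1a stood at 241, 193 and 236 CPM in Glu positive libraries, against 113 and 100.3 CPM in Glu negative libraries (1.07 ± 0.38, edgeR adjusted p of 0.0989). The groups of Cdkn1a did not overlap, but it did not pass. Between the positive populations edgeR called 2 of the 15 inhibitor genes higher and 0 lower, beside 3.18% and 4.95% of all genes. Cdkn1a was higher in NeuroD1 positive than in Glu positive cells by 2.66 ± 0.35 (edgeR adjusted p of 0.000120), and Cdkn1c stood at 1.07 ± 0.56 (0.242). The largest log2 fold change of the 15 was 3.06, for Cdkn2d, which was named after its values were seen. The interactions, 1.85 ± 0.49 for Cdkn1a (edgeR adjusted p of 0.155) and 2.14 ± 0.90 for Cdkn1c (0.404), did not pass, so a difference between the strains in either gene was not shown.

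The wider lists stood on the same side as the members in the NeuroD1 strain, with no calls. Of 40 further mitotic genes tested, 0 were called by edgeR in NeuroD1 positive against NeuroD1 negative cells (2 lower by DESeq2, 0 by limma voom, 5 at an unadjusted p under 0.05), 37 lay below 0, and the median log2 fold change was -0.77. Of 35 further replication genes tested, 0 were called by edgeR (1 lower by DESeq2, 0 by limma voom, 3 at an unadjusted p under 0.05), 29 lay below 0, and the median was -0.37. Of all genes in this comparison 26.4% had an unadjusted p under 0.05, a larger share than in either list. Among all genes 49.2% lay below 0, the median was 0.02, and edgeR called 7.61% lower and 6.57% higher. In Glu positive against Glu negative cells 2 of the 40 rose and 1 of the 35 fell, shares near the 4.22% of all genes called higher and the 2.41% called lower. The checkpoint kinase Ttk stood at 41.3, 5.17 and 10.1 CPM in Glu positive libraries, against 1.77 and 1.68 CPM in Glu negative libraries (3.43 ± 0.95, edgeR adjusted p of 0.0373). Cks1b, a small subunit of cyclin-dependent kinases, stood at 372, 23.4 and 13.2 CPM in Glu positive libraries, against 16.8 and 5.88 CPM in Glu negative libraries (3.59 ± 1.05, edgeR adjusted p of 0.0473), and at 0.70 with an edgeR adjusted p of 0.615 without Glu_positive_5254. Prim2, a primase subunit, stood at 1.21, 2.41 and 0.43 CPM in Glu positive libraries, against 13.5 and 9.80 CPM in Glu negative libraries (-3.16 ± 0.93, edgeR adjusted p of 0.0475). Ttk did not pass without Glu_positive_5254 either (2.15, edgeR adjusted p of 0.137). With the 5 Glu libraries fitted alone none of Ttk, Cks1b and Prim2 passed, with edgeR adjusted p-values of 0.114 to 0.122.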

How the data were processed

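RNA of 11 libraries of sorted mouse duodenal cells was measured from 2 ng each. Reads were processed with CASAVA, TopHat2 2.1.0 and Cufflinks 2.2.1 on GRCm38, per the submitters' processing notes. The authors deposited 1 table of estimated counts per gene, with no scaling, in which 848 of 38283 genes hold values that are not whole, so the expected counts were rounded. Neither strand handling nor the annotation release is stated in these sources. Symbols and coordinates were taken from GENCODE vM21 for 36425 genes, and promoters from RefSeq.

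Genes passing edgeR's filterByExpr (14332) were scaled by TMM and fitted with edgeR 4.0.16 quasi-likelihood models in R 4.3.3 over all 11 libraries with 4 group means, and p-values were adjusted by Benjamini-Hochberg over all genes tested. SEs are the log2 fold change divided by the root of the F statistic. The code was tested on simulated data. Replicates differed beyond sampling noise (chi-square per degree of freedom 15.3 to 135.0), so none was a copy. The alternatives were RLE, upper quartile and library total scaling, no filter, a stricter filter (CPM of at least 5 in 3 libraries), DESeq2 1.42.0, limma 3.58.1 voom, the compared groups alone, a replicate block, omission of mt-Rnr1 and mt-Rnr2, and omission of each library. Leaving Gins2 out of the sums was added after seeing the data. Values in every library were given for 8 set genes (Mki67, Top2a, Cdk1, Ccnb1, Pcna, Mcm2, Ccne1 and Rrm2) and for each member called in any of 5 contrasts; of the other lists, up to 4 called genes per positive against negative contrast were named, with the 2 most abundant inhibitor and G1 genes. The members and lists were chosen with earlier results of these data known. Low totals, 2279595 to 5722381 counts a library, limit the precision of genes such as Ccne1.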

Additional observations from a re-analysis of the deposited data

How the results depend on the processing

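The count of cell cycle genes called in NeuroD1 positive against NeuroD1 negative cells depended on the settings. The 1 gene higher became 0 with upper quartile scaling, library totals or limma voom, and 0 to 1 when 1 library was left out. The 1 gene lower became 2 with RLE scaling, 4 with upper quartile scaling, 6 with library totals or DESeq2, 3 without the filter, 12 with the compared groups alone, and 0 to 6 when 1 library was left out. Over all genes, the 1090 called lower became 821 to 1399 under the alternatives other than leaving out 1 library. In Glu positive against Glu negative cells 1 gene was higher without the filter, 0 to 1 were higher and 0 to 1 lower when 1 library was left out, and 6 had groups that did not overlap and were lower with library totals. In NeuroD1 positive against Glu positive cells the 3 genes lower became 7 with library totals or DESeq2, 6 without the filter, 1 with the compared groups alone and 0 to 8 when 1 library was left out, and 0 to 2 were higher. Over all genes, the 709 called lower there became 243 to 1248 under the alternatives other than leaving out 1 library. The log2 ratio of summed CPM in the NeuroD1 strain was -0.78 (S phase) and -1.30 (mitotic) with library totals, and -0.91 for S phase without Gins2. Library totals moved the median of all genes to -0.28 (NeuroD1 strain), -0.19 (Glu strain) and -0.51 (between positive cells), and 39 to 40 of the cell cycle genes tested were below 0 in the NeuroD1 strain under the alternatives, where the number tested changed with the filter.

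With the replicate number as a block, 3 genes were lower and 1 higher in the NeuroD1 strain, and none passed in the Glu strain or the interaction. Deviations from the group mean correlated at 0.00984 to 0.0459 between same-numbered libraries and at -0.0415 to 0.0201 between differently numbered ones. With 2 Glu negative libraries their deviations mirror each other, so each Glu value has a forced opposite. Such small values cannot decide whether the numbers pair the samples, and the main fit used no pairing. When 1 library was left out, values that changed sign ranged from -1.20 to 0.0602 for E2f1 in the NeuroD1 strain, above 0 without NeuroD1_negative_6361. In the Glu strain they ranged from -0.0410 to 0.531 for Mki67 (below 0 without Glu_positive_5254 or Glu_negative_5254), -0.408 to 0.199 for Pcna (above 0 without Glu_positive_5160 or Glu_positive_4665), -1.11 to 0.873 for Mcm2 (below 0 without Glu_positive_5254) and -2.77 to 1.20 for Aurka (above 0 without Glu_negative_5254). The interaction of Aurka ranged from -1.94 to 2.04 and was below 0 without Glu_negative_5254. In the Glu strain Mki67 was also below 0 with upper quartile scaling (-0.0963) and library totals (-0.163), Pcna above 0 with the block (0.133) and Mcm2 below 0 with library totals (-0.0688) and limma voom (-0.304). The cause was not tested. Of 4175 values of the members under 21 alternatives 144 turned sign, and 0 of those were called in the main setting. Ccne1, with 64 counts over all libraries, was the least covered of the 42 genes.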

Other observations

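Of 12 G1 cyclins, kinases and MYC genes tested, 0 were called in NeuroD1 positive against NeuroD1 negative cells by edgeR, DESeq2 or limma voom, with 1 at an unadjusted p under 0.05, 9 of the 12 had log2 fold changes below 0, and their median was -0.29, against 0.02 for all genes. Ccnd2, the cyclin D2 gene, stood at 165, 214 and 153 CPM in NeuroD1 positive libraries, against 144, 264 and 130.5 CPM in NeuroD1 negative libraries, and the groups overlapped. Of 15 E2F and DREAM genes tested, 0 were called by edgeR, DESeq2 or limma voom and 0 had an unadjusted p under 0.05, with a median of 0.10. Among all genes 26.4% had an unadjusted p under 0.05. In Glu positive against Glu negative cells 0 of the 12 and 0 of the 15 were called by edgeR or limma voom, and 0 and 2 were called higher by DESeq2. An unadjusted p under 0.05 was found for 0 and 4, beside 23.4% of all genes.

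Between the positive populations 1 of the 12 G1 genes was called higher and 1 lower by edgeR, where 8.13% of all genes were called in either direction. Myc, a driver of cell growth, stood at 44.4, 56.5 and 41.1 CPM in NeuroD1 positive libraries, against 290.0, 86.1 and 140.1 CPM in Glu positive libraries. It fell by 1.86 ± 0.44 on the log2 scale in NeuroD1 positive cells (edgeR adjusted p of 0.0136), and did not pass without Glu_positive_5254 (-1.26, 0.0546), NeuroD1_positive_6360 (0.0655) or NeuroD1_positive_6362 (0.0670). Ccnd3, the cyclin D3 gene, which was chosen after its values were seen, stood at 20.9, 49.2 and 15.9 CPM in NeuroD1 positive libraries, against 3.64, 7.58 and 7.69 CPM in Glu positive libraries (2.17 ± 0.61, edgeR adjusted p of 0.0330; 0.0984 with library totals, 0.0806 with limma voom and 0.211 without NeuroD1_positive_6361). Neither pair of groups overlapped, and strain and batch cannot be told apart in these values.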
